A study of Mus musculus with 5 samples.

Results

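The secreted Wnt system was examined through 38 of the 78334 genes in the count table: all 19 Wnt ligands, the 10 Frizzled receptors (Fzd1 to Fzd10), the secreted Frizzled-related proteins Sfrp1, Sfrp2, Sfrp4 and Sfrp5, the Dickkopf genes Dkk1 to Dkk4, and Wif1. They were chosen by mouse symbol. Poly-A RNA labelled as visceral fat of male C57BL/6 mice had been sequenced in 5 libraries. Control 1 came from standard chow and vehicle. Diabetes 1 and diabetes 2 came from mice injected with streptozotocin (70 mg/kg, intraperitoneal), which kills the pancreatic beta cells, when 2 days old, and kept from 3 weeks of age on a diet in which fat gave 60% of the calories, for 8 weeks, with vehicle. Curcumin-treated 1 and 2 shared that toxin and that diet, and curcumin, a polyphenol of turmeric, was gavaged at 50 mg/kg each day over 28 days from 11 weeks of age. Toxin and diet therefore differ together between control and diabetes, and their parts cannot be told apart. The control group is a single library with no spread, and nothing in the labels ties libraries of a group to separate mice. The p-values therefore set a group difference against the spread of these libraries only, and that spread need not be the spread between mice.

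Wnt proteins are lipid-modified secreted signals. They bind a Frizzled receptor, together with the co-receptors Lrp5 or Lrp6 in the canonical branch, where beta-catenin is spared from breakdown and joins the TCF and LEF factors at target genes. Other branches act through Ror and Ryk receptors and cell polarity proteins. Sfrp proteins and Wif1 bind the ligand outside the cell, whereas Dkk1 occupies the co-receptor. In fat tissue, canonical Wnt signalling is known for holding back the differentiation of preadipocytes, and Sfrp5 is known as a protein secreted by adipocytes that binds Wnt5a.

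Total counts ran from 25378046 to 42422890 per library. Values are CPM, the usual depth-scaled count, taken over the library total. A gene with 0 counts may hold up to 3, which is 0.0707 CPM in curcumin-treated 2 and 0.108 to 0.118 CPM in the other libraries. Of the 59 member values at or above 10 CPM, counting error alone gave 95% Poisson intervals with a half-width of at most 12.0% of the value. The label was checked against 9 adipocyte markers, among them Adipoq and Plin1. They took 2.37% of the counts of diabetes 2 and 0.305% of curcumin-treated 1, but 0.0476% of control 1, 0.0118% of diabetes 1 and 0.0159% of curcumin-treated 2. Markers of the epididymal epithelium (11 genes), the sperm duct beside gonadal fat, took 7.06% of control 1, 6.86% of diabetes 1 and 10.7% of curcumin-treated 2. Their share was 0.601% in curcumin-treated 1, and diabetes 2 held 3 counts of them in all, with 9 of the 11 at 0. Smooth muscle and pericyte markers (10 genes) took 5.10% of curcumin-treated 1 and 0.123% to 0.280% of the others. The libraries of a group thus differed in tissue markers, and each member value below stands beside these shares. Their part in the results was not tested. In such bulk RNA, fewer cells of a type and less RNA per cell cannot be told apart.

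The 3 classes of the system did not all peak in the same library. Summed per kilobase of exon, the scale used for all comparisons between genes, the Wnt ligands stood at 30.5 CPM per kb in control 1, 19.9 and 8.44 in diabetes 1 and 2, and 33.2 and 28.4 in curcumin-treated 1 and 2. Diabetes 2 was the lowest library for ligands. The Frizzled receptors summed to 31.1, 24.9, 96.1, 71.1 and 26.3 CPM per kb in the same order. The 9 secreted inhibitors summed to 13.6, 13.3, 328, 105 and 14.6 CPM per kb. Diabetes 2 was therefore the highest library for receptors and inhibitors, with curcumin-treated 1 next, and the other 3 libraries lay close together in both classes. The diabetic libraries lay at opposite ends for receptors and inhibitors, so both other groups lay between them.

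**Figure D1:**
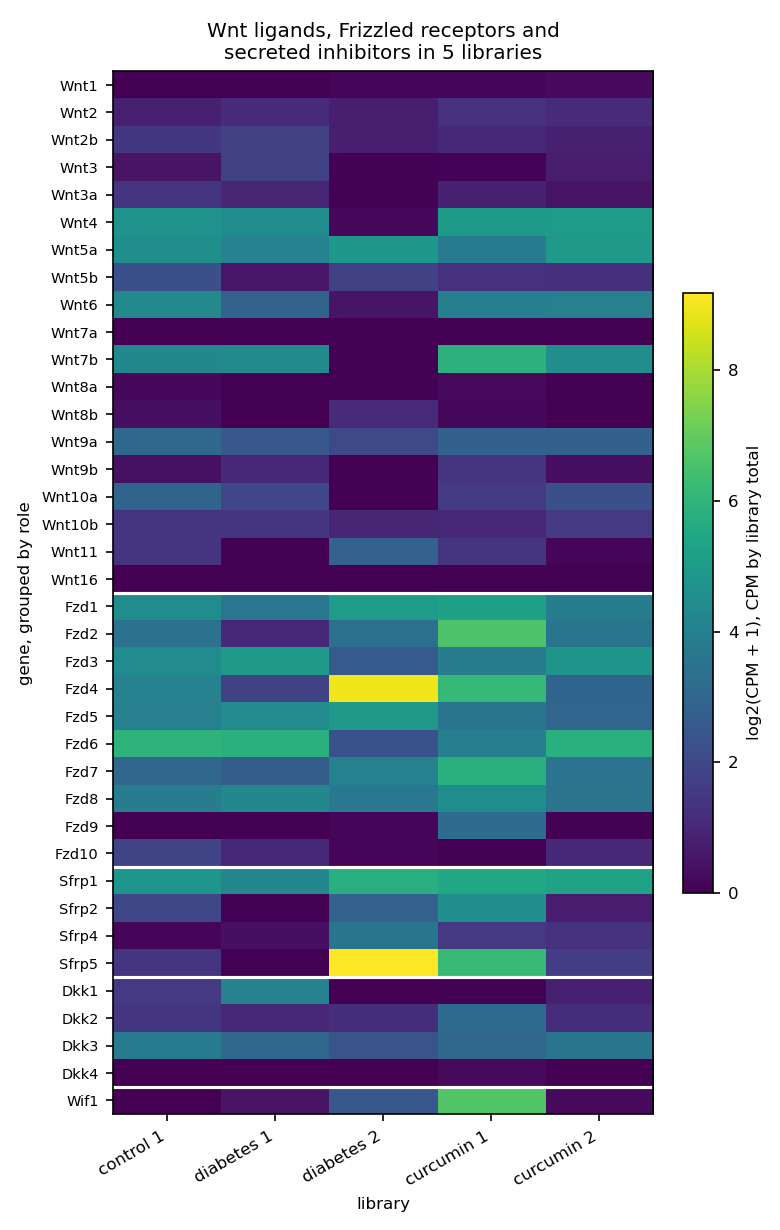
Level of each of the 38 members (vertical axis, grouped by role, white lines between groups) in the 5 libraries (horizontal axis), coloured by log2(CPM + 1). The brightest cells are Sfrp5 at 582 CPM and Fzd4 at 502 CPM, both in diabetes 2, while Wnt4, Wnt6 and Wnt7b are dark in that library.

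A single gene led each class, and its identity changed with the library. Among ligands per kilobase, Wnt6 led control 1 with 28.9% of the sum, Wnt4 led diabetes 1 with 25.1% and curcumin-treated 2 with 27.1%, Wnt5a led diabetes 2 with 43.4%, and Wnt7b led curcumin-treated 1 with 35.8%. Among receptors, Fzd6 led control 1 (40.8%), diabetes 1 (46.7%) and curcumin-treated 2 (44.0%). Fzd4 made up 77.8% of the receptor sum in diabetes 2, and Fzd2 37.5% in curcumin-treated 1. Among inhibitors, Sfrp1 led control 1 (45.8%) and curcumin-treated 2 (60.3%), Dkk1 led diabetes 1 (48.3%), Sfrp5 led diabetes 2 (93.4%), and Wif1 (39.9%) stood just ahead of Sfrp5 (35.6%) in curcumin-treated 1. Control 1 and curcumin-treated 2 thus had the same leading receptor and inhibitor, whereas neither pair of libraries within a group did.

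**Figure D2:**
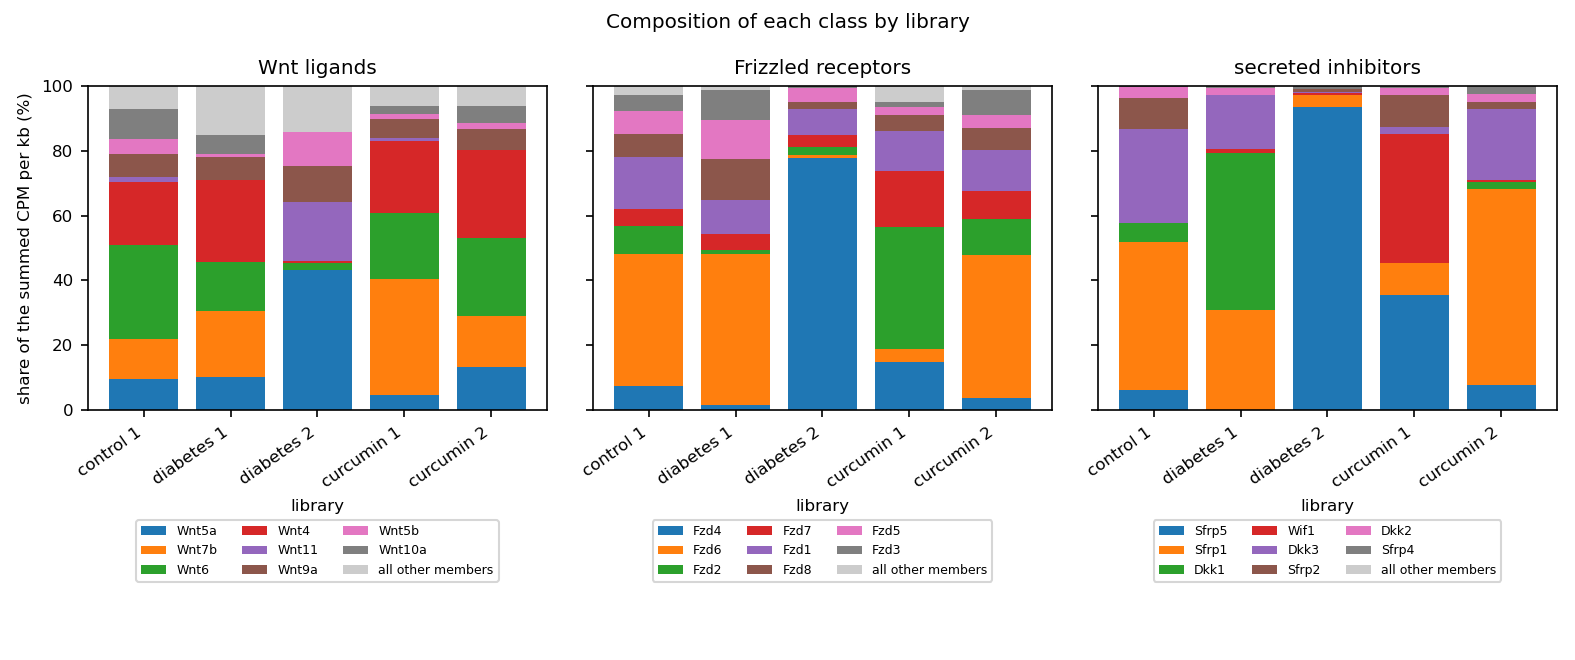
Share of each class's summed CPM per kb (vertical axis, %) taken by its members in each library (horizontal axis), with the 8 members of largest share in colour and the rest in grey. Fzd4 fills 77.8% of the receptor bar and Sfrp5 93.4% of the inhibitor bar of diabetes 2, and in the other libraries the largest share of a member is 60.3% (Sfrp1 in curcumin-treated 2).

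Of the 33 members that passed the filter on low counts, 11 were highest in curcumin-treated 1, 8 in control 1, 7 in diabetes 2, 4 in diabetes 1 and 3 in curcumin-treated 2. Over all 29855 genes tested, these libraries were highest for 21.2%, 18.6%, 22.0%, 22.9% and 15.3% of genes.

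Upstream sequence is shown for Sfrp5, Fzd4, Wif1 and Wnt6, because the first 3 carried the highest values of the inhibitors and receptors and Wnt6 is a ligand that was nearly absent from the library where Sfrp5 and Fzd4 peaked. The letters come from RefSeq's promoter table (GRCm38.p6, matched by symbol, not the build of the counts) and run 5′ to 3′ on the gene's strand, from 250 to 51 bases before the annotated start. Capitals mark matches to a motif. The windows lie at chr19:42202303-42202502 on the minus strand for Sfrp5, and on the plus strand at chr7:89404116-89404315 for Fzd4, chr10:121033754-121033953 for Wif1 and chr1:74771642-74771841 for Wnt6.
Sfrp5: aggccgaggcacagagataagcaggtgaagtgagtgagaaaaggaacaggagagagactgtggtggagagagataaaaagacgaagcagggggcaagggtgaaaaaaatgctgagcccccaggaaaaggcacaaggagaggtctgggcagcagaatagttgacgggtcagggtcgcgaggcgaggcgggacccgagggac
Fzd4: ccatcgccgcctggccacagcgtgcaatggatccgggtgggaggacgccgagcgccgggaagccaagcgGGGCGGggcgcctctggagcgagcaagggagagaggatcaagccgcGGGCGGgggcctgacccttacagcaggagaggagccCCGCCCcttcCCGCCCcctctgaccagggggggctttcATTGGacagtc
Wif1: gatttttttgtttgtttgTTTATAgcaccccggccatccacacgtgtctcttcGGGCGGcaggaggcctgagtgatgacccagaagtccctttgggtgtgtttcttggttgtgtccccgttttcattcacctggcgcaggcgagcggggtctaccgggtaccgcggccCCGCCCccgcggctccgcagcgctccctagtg
Wnt6: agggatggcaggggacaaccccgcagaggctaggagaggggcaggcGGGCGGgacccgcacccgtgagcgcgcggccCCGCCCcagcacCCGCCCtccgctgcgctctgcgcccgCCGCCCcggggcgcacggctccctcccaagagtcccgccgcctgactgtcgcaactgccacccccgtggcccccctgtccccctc

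The search covered 5 motifs on both strands. TCF and LEF factors were represented by the core CTTTGA. The GC box was searched as GGGCGG and the TATA box as TATAAA. A half-site of nuclear receptors was searched as AGGTCA, and the box named after its letters as CCAAT. No 2 of these motifs overlapped in the windows shown. The Fzd4 window held 4 GC boxes and 1 CCAAT, and the Wnt6 window held 4 GC boxes. The Wif1 window held 2 GC boxes and 1 match to TATAAA on the opposite strand, and the Sfrp5 window held none of the 5. The GC content was 56.5% for Sfrp5, 71.5% for Fzd4, 61.0% for Wif1 and 78.5% for Wnt6. Windows of this length were at hand for 26 of the 38 members (29 entries), and 19 of the 29 (65.5%) held a GC box, against 24.6% of all 32851 windows. The core CTTTGA was in 3 of the 29 (10.3%) and in 11.8% of all windows, CCAAT in 34.5% and 28.4%, TATAAA in 6.90% and 9.14%, and AGGTCA in 3.45% and 11.4%. The median GC content was 67.5% for the members and 51.5% for all windows. These matches describe letters in the windows and say nothing of which factors bind there. The windows stop 51 bases before the annotated start, so motifs nearer to it, TATAAA among them, were not searched.

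Only 4 of the 19 ligands reached 10 CPM in any library. Wnt4 (ENSMUSG00000036856), which acts in reproductive tract and kidney development, stood at 25.2 CPM in control 1, 20.9 and 0.158 in diabetes 1 and 2, and 30.9 and 32.3 in curcumin-treated 1 and 2. The value of diabetes 2 was 4 counts, and the highest of the other 4 libraries was 1.54-fold above the lowest. Wnt6 (ENSMUSG00000033227), a ligand of epithelia, stood at 19.3, 6.64, 0.394, 14.7 and 15.0 CPM in the same order. Wnt7b (ENSMUSG00000022382), another epithelial ligand, stood at 18.6, 19.8, 0, 58.2 and 21.8 CPM. For all 3, diabetes 2 was the lowest library, both curcumin-treated libraries lay above both diabetic ones, and curcumin-treated 1 held more than diabetes 1, with an epididymal marker share of 0.601% against 6.86%. Markers of the mesothelium (8 genes), the lining of visceral fat, took 0.00179% of diabetes 2 and 0.0213% to 0.0468% of the other libraries. The single markers did not all follow this sum. In diabetes 1, 3 of them (Lrrn4, Upk3b and Gpm6a) had 0 counts, and so had Bnc1 in control 1. In diabetes 2 each marker had counts.

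Wnt5a (ENSMUSG00000021994), the main ligand of the non-canonical branches and one that stromal cells make, behaved differently. It stood at 22.6 CPM in control 1, 15.8 and 28.6 in diabetes 1 and 2, and 12.3 and 29.7 in curcumin-treated 1 and 2. Its libraries of each group lay on both sides of the control, and the groups overlapped. It was the most even of the 4 ligands across libraries.

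The other 15 ligands stayed below 10 CPM. Wnt9a had 7.36, 4.68, 3.07, 6.22 and 6.20 CPM, and Wnt10a had 6.81, 2.87, 0, 1.94 and 3.72 CPM. Wnt10a is the direct genomic neighbour of Wnt6 in RefSeq's gene order, and both were highest in control 1 and lowest in diabetes 2. The pairs Wnt3a and Wnt9a, Wnt9b and Wnt3, and Wnt10b and Wnt1 are neighbours too. Wnt11, which acts through cell polarity, was highest in diabetes 2 at 6.38 CPM, with 1.63 in control 1, 0 in diabetes 1, and 1.62 and 0.118 in curcumin-treated 1 and 2. Wnt5b, the close relative of Wnt5a, had 3.74 CPM in control 1 and 0.471 to 2.40 in the others. Wnt3, a canonical ligand, reached 2.52 CPM in diabetes 1 and at most 0.660 in the others. Wnt8b had 30 counts in diabetes 2 and at most 8 elsewhere. Wnt2, Wnt2b, Wnt3a, Wnt9b and Wnt10b stayed at or below 2.40 CPM, Wnt1 at or below 7 counts and Wnt8a at or below 5. Wnt16 had at most 2 counts, and Wnt7a had 0 in all 5 libraries, so neither was detectable at this depth. More than 3 counts were found for 16 ligands in control 1, 13 in diabetes 1, 10 in diabetes 2 and 15 in each curcumin-treated library.

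Among the receptors, Fzd4 (ENSMUSG00000049791), a receptor of vessels that also binds Norrin, had the widest range of the 8 that reached 10 CPM. It stood at 15.8 CPM in control 1, 2.40 and 502 in diabetes 1 and 2, and 70.5 and 6.77 in curcumin-treated 1 and 2. Diabetes 2 was thus 31.9-fold above control 1 and diabetes 1 lay below it. The 5 libraries came in the same order for Fzd4 as for the adipocyte marker share and for the share of the 6 endothelial markers. The endothelial share was 0.0279% in diabetes 2, 0.0137% in curcumin-treated 1 and 0.01315% in control 1. It was 0.00624% in curcumin-treated 2 and 0.00311% in diabetes 1. The part of either marker share was not tested.

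Fzd6 (ENSMUSG00000022297), a receptor of epithelial polarity, was lowest where Fzd4 was highest. It stood at 61.2 CPM in control 1, 56.0 and 3.94 in diabetes 1 and 2, and 14.4 and 55.8 in curcumin-treated 1 and 2. The 3 libraries with the high epididymal marker share were within 1.10-fold of each other, and the other 2 lay below. Fzd3 (ENSMUSG00000007989), which also acts in polarity, had 20.5, 29.4, 5.04, 14.0 and 26.3 CPM and split the libraries the same way.

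Fzd2 (ENSMUSG00000050288) and Fzd7 (ENSMUSG00000041075), closely related receptors, were highest in curcumin-treated 1. Fzd2 stood at 9.81 CPM in control 1, 1.06 and 9.22 in diabetes 1 and 2, and 97.5 and 10.8 in curcumin-treated 1 and 2. Diabetes 1 was low and curcumin-treated 1 high, and the other 3 libraries lay within 1.17-fold of each other. Fzd7 stood at 7.10, 5.46, 15.4, 56.4 and 10.4 CPM. Fzd9 was seen in curcumin-treated 1 almost alone, with 230 counts (8.27 CPM) against 0, 0, 2 and 2 counts in control 1, diabetes 1, diabetes 2 and curcumin-treated 2. The smooth muscle and pericyte markers had their highest share, 5.10%, in this library.

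Fzd1 (ENSMUSG00000044674), Fzd5 (ENSMUSG00000045005) and Fzd8 (ENSMUSG00000036904) were the more even receptors. Fzd1 had 21.0 CPM in control 1, 11.1 and 32.6 in diabetes 1 and 2, and 36.9 and 13.9 in curcumin-treated 1 and 2. Fzd8 had 13.4, 18.6, 11.9, 21.0 and 10.7 CPM, a span of 1.95-fold. Fzd5 had 15.0 CPM in control 1, 20.8 and 30.5 in diabetes 1 and 2, and 10.8 and 6.93 in curcumin-treated 1 and 2. It was the only one of the 8 whose diabetic libraries both lay above, and whose curcumin-treated libraries both lay below, the control. Fzd10 stayed low, with 2.70 CPM in control 1, 1.06 and 0.118 in diabetes 1 and 2, and 0 and 1.01 in curcumin-treated 1 and 2.

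**Figure D3:**
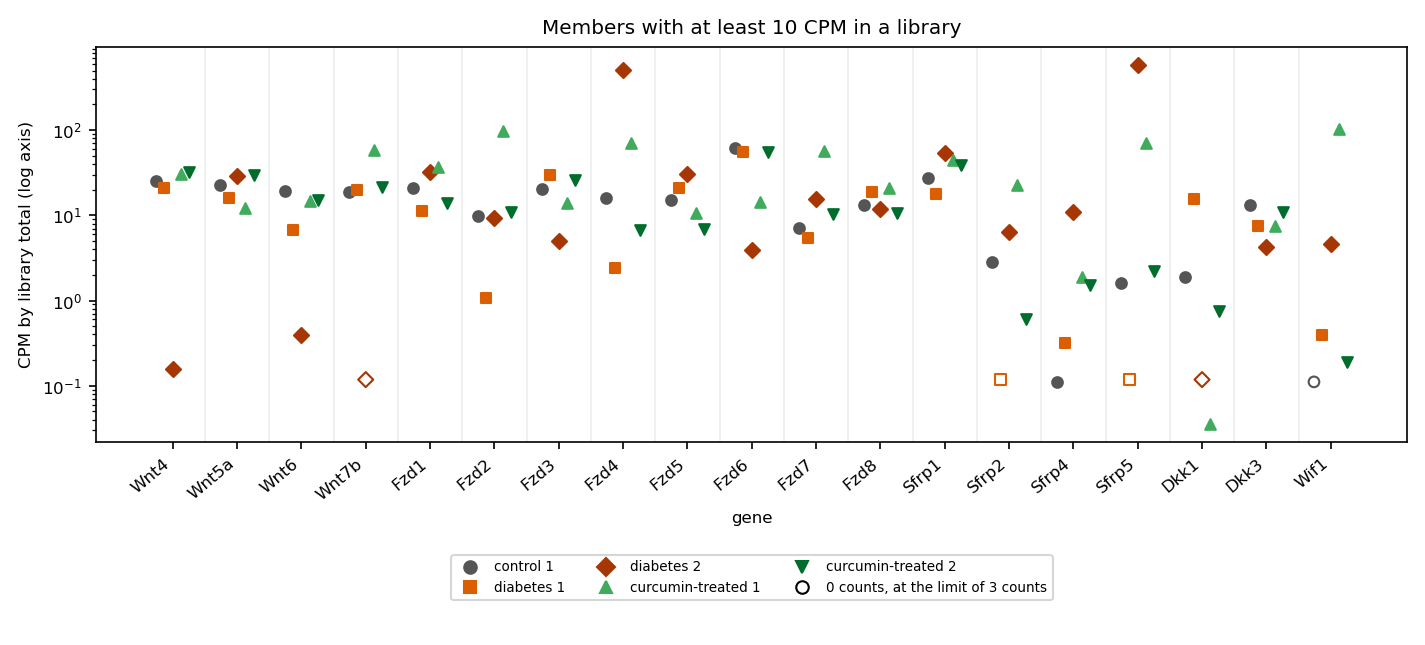
CPM by library total (vertical log axis) of the 19 members with at least 10 CPM in some library (horizontal axis), with a symbol per library and open symbols for 0 counts drawn at the limit of 3 counts. Wnt4, Wnt6 and Wnt7b have their lowest point in diabetes 2, where Fzd4 and Sfrp5 have their highest, and Fzd2, Fzd7 and Wif1 peak in curcumin-treated 1.

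Of the inhibitors, Sfrp5 (ENSMUSG00000018822) reached the highest value of any member. It stood at 1.59 CPM in control 1, 0 and 582 in diabetes 1 and 2, and 71.3 and 2.19 in curcumin-treated 1 and 2. As counts these are 43, 0, 14774, 1982 and 93, so the diabetic libraries held the extremes. The high values were again in the libraries with the larger adipocyte marker share, and diabetes 1 had the smallest share, 0.0118%. Sfrp4 (ENSMUSG00000021319), known as a secreted product of fat that is high in obesity, was also highest in diabetes 2, with 0.111 CPM in control 1, 0.314 and 10.8 in diabetes 1 and 2, and 1.91 and 1.51 in curcumin-treated 1 and 2. The control and diabetes 1 values were 3 and 8 counts.

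Sfrp1 (ENSMUSG00000031548), which binds Wnt ligands and favours fat cell formation, was found in every library. It stood at 27.2 CPM in control 1, 18.0 and 54.6 in diabetes 1 and 2, and 44.5 and 38.6 in curcumin-treated 1 and 2. Sfrp2 (ENSMUSG00000027996), a product of fibroblasts, had 2.85, 0, 6.38, 22.7 and 0.613 CPM. The fibroblast and preadipocyte markers (10 genes) were at 0.347% in diabetes 2, 0.117% in curcumin-treated 1, 0.139% in curcumin-treated 2 and at most 0.0670% in the others, so that Sfrp2 and these markers did not peak in the same library. The 6 macrophage markers took 0.126% of diabetes 2 and 0.00573% to 0.0165% of the others.

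Wif1 (ENSMUSG00000020218), which binds Wnt ligands through its WIF domain, had 0 counts in control 1, 0.393 and 4.57 CPM in diabetes 1 and 2, and 102 and 0.189 CPM in curcumin-treated 1 and 2. The last of these was 8 counts, so the curcumin-treated libraries lay on both sides of the diabetic ones. Dkk1 (ENSMUSG00000024868), the classical co-receptor antagonist, was high in diabetes 1 alone, with 15.6 CPM (398 counts) there, 1.89 in control 1, 0 in diabetes 2, and 0.0360 (1 count) and 0.754 in curcumin-treated 1 and 2. Dkk3 (ENSMUSG00000030772), a divergent relative of Dkk1, had 13.2, 7.54, 4.26, 7.51 and 10.9 CPM, a span of 3.10-fold. Dkk2 reached 8.23 CPM in curcumin-treated 1 and had 1.06 to 1.74 CPM in the other 4 libraries. Dkk4 had at most 5 counts.

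The first comparison asked what curcumin changed in diabetes. Wnt4, Wnt6, Wnt7b, Wnt9a, Fzd2 and Dkk2 were higher in both curcumin-treated libraries than in both diabetic ones. Fzd5 was the only tested member lower in both. Such separation was found for 17.9% of all tested genes in the higher direction (6 of the 33 members tested) and for 9.72% in the lower direction (1 of 33). Some margins were small. Curcumin-treated 2 lay 1.02-fold above diabetes 2 for Dkk2 and 1.17-fold for Fzd2, and 1.10-fold above diabetes 1 for Wnt7b. In each of these cases the counting intervals overlapped. With edgeR's quasi-likelihood test, 0 of the 33 members and 0% of all genes passed an adjusted p of 0.05. At an unadjusted p under 0.05 the counts were 1 of the 33 members and 696 of all 29855 genes tested, and DESeq2 called 0 members and 93 genes. limma-voom called 0 genes in each of the 3 comparisons. The median log2 fold change was 0.26 over the members (21 of 33 above 0) and 0.05 over all genes (51.7% above 0). Without curcumin-treated 1 these medians were -0.02 over the members and -0.08 over all genes, and without diabetes 1 they were 0.94 and 0.45.

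Fzd5, the member with the smallest p, stood at 8.86 ± 2.73 CPM with curcumin and 25.6 ± 6.81 CPM in diabetes (SD, n = 2 each). Its log2 fold change was -1.58 (SE 0.57, adjusted p = 0.852 by edgeR), and ran between -1.91 and -1.16 with any replicated library left out. The curcumin-treated and diabetic libraries did not overlap for Fzd5, so its sign was bound to stay and adds no support. Fzd2 stood at 54.2 ± 61.3 CPM with curcumin and 5.14 ± 5.77 CPM in diabetes (SD, n = 2 each), with a log2 fold change of 3.23 (SE 1.46, adjusted p = 0.852 by edgeR). This value was 1.08 without curcumin-treated 1 and 5.67 without diabetes 2. Dkk1 stood at 0.395 ± 0.508 CPM with curcumin and 7.82 ± 11.1 CPM in diabetes (SD, n = 2 each), with a log2 fold change of -4.08 (SE 2.70, adjusted p = 0.852 by edgeR). Without diabetes 1 the sign changed: diabetes 2 held 0 counts, and the curcumin-treated mean was at least 3.34-fold above its limit of 3 counts. Fzd9 held 2 counts over both diabetic libraries and 232 over both curcumin-treated ones. The ratio of the curcumin-treated mean CPM to the pooled diabetic CPM was 106, with a counting interval of 29.2 to 873 for the 2 counts, its adjusted p was 0.852 by edgeR, and without curcumin-treated 1 the gene was below the filter. The standard deviation exceeded the mean in both groups for Fzd2 and Dkk1.

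**Figure D4:**
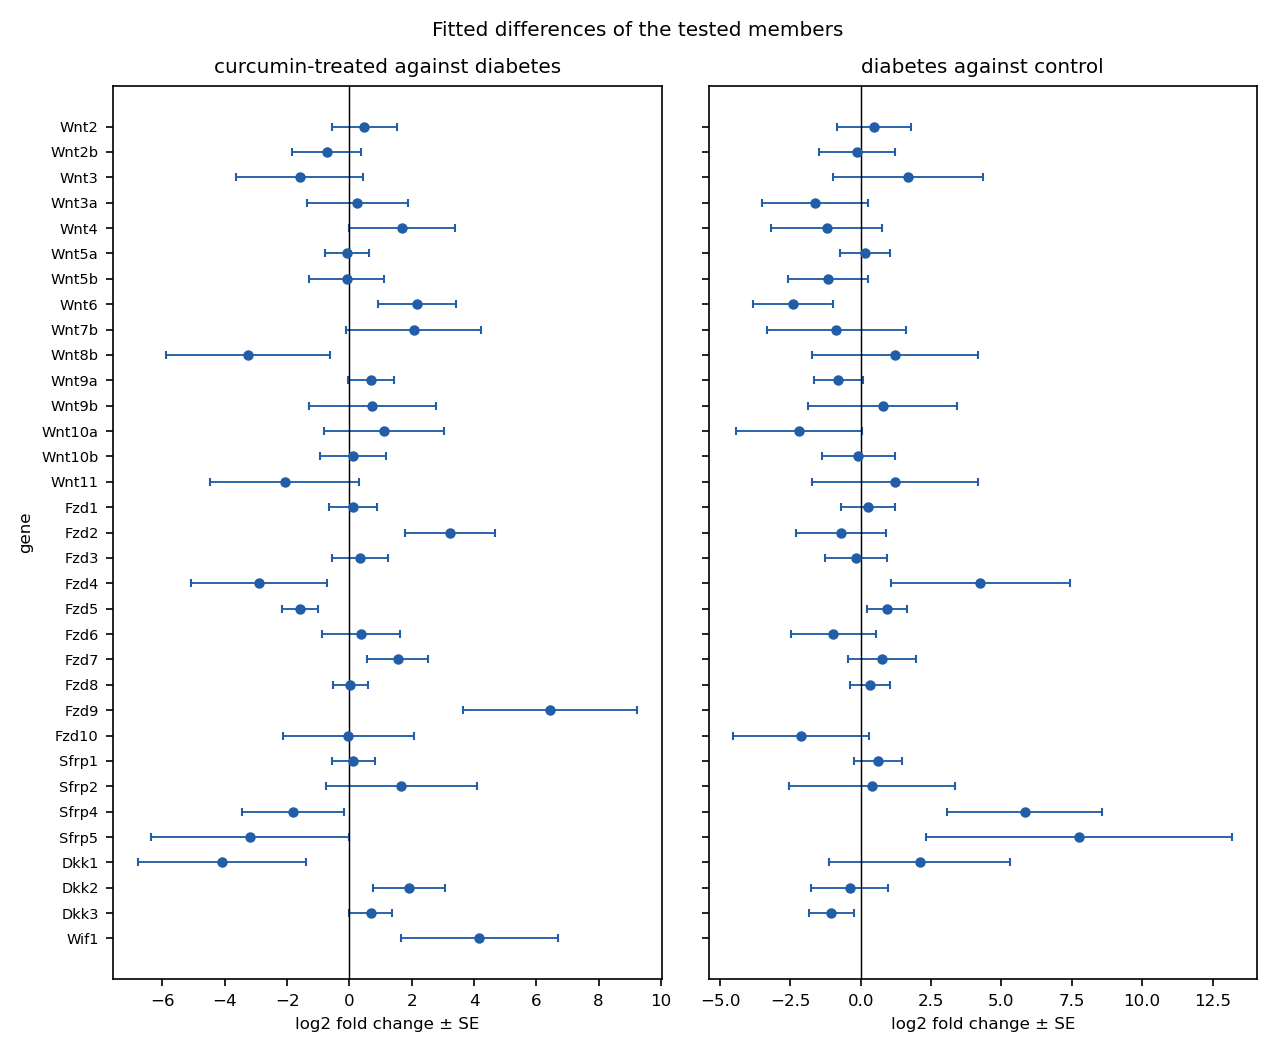
Fitted log2 fold change (horizontal axis, bars are ± 1 SE) of the tested members (vertical axis) for curcumin-treated against diabetes and for diabetes against control, on separate scales. Fzd5 at -1.58 has a short bar in the left panel, and Fzd9 and Wif1 have no point in the right panel because the control held 0 counts of them.

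Diabetes was then compared with the single control. Fzd5, Sfrp4 and Wif1 were higher in both diabetic libraries than in the control. Dkk2, Dkk3, Fzd2, Fzd6, Fzd10, Wnt3a, Wnt4, Wnt5b, Wnt6, Wnt9a and Wnt10a were lower in both. These were 3 and 11 of the 33 members, and the same separation was found for 17.3% and 34.5% of all tested genes. On TMM-scaled values the counts were 5 and 10, beside 20.2% and 30.9% of all tested genes. Fzd8 and Wnt2 joined the higher ones. Fzd2, by library total only 1.06-fold below the control in diabetes 2, left the lower ones. By library total, the counting intervals overlapped the control's for Sfrp4, Fzd6, Wnt3a and Dkk2 in diabetes 1. In diabetes 2 they did so for Dkk2, Fzd2 and Wnt5b. By edgeR, 0 members and 0% of genes passed the threshold, with 0 members and 440 genes at an unadjusted p under 0.05, and DESeq2 called 0 members and 55 genes. The median log2 fold change was 0.26 over the members (18 of 33 above 0) and 0.07 over all genes (52.4% above 0). Without diabetes 2 these medians were -0.41 over the members and -0.03 over all genes, and without diabetes 1 they were -0.18 and -0.07.

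Sfrp4 stood at 5.56 ± 7.41 CPM (SD, n = 2) in diabetes against 0.111 CPM in the control, with a log2 fold change of 5.83 (SE 2.76, adjusted p = 1 by edgeR). The control value is 3 counts, and the ratio of the diabetic mean to it was 50.05, with a counting interval of 17.1 to 243. Without diabetes 2 the log2 fold change was 1.51. Wif1 had 0 control counts, and its diabetic mean of 2.48 CPM was at least 22.4-fold above the limit of 3 counts (adjusted p = 1 by edgeR). The same ratio was 3.54-fold in diabetes 1 and 41.2-fold in diabetes 2. The diabetes 1 value was 10 counts, with a counting interval of 0.188 to 0.723 CPM. Wnt6 stood at 3.52 ± 4.42 CPM (SD, n = 2) against 19.3 CPM, with a log2 fold change of -2.40 (SE 1.42, adjusted p = 1 by edgeR), which was -5.36 without diabetes 1 and -1.50 without diabetes 2. Dkk3 stood at 5.90 ± 2.32 CPM (SD, n = 2) against 13.2 CPM, with a log2 fold change of -1.04 (SE 0.81, adjusted p = 1 by edgeR). Wnt4, Wnt6 and Fzd6 are among the 11 lower members, and diabetes 2, their lowest library, held 3 counts of the epididymal markers that took 7.06% of control 1. In diabetes 1 these markers took 6.86%. That library lay below the control by 1.20-fold for Wnt4, 2.90-fold for Wnt6 and 1.09-fold for Fzd6. The part of the tissue markers was not tested.

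The third comparison set curcumin-treated libraries beside the control. In both, 10 of the 33 members were higher than the control (Fzd2, Fzd7, Fzd9, Sfrp1, Sfrp4, Sfrp5, Wif1, Wnt2, Wnt4 and Wnt7b) and 13 were lower (Dkk1, Dkk3, Fzd5, Fzd6, Fzd10, Wnt2b, Wnt3a, Wnt5b, Wnt6, Wnt8b, Wnt9a, Wnt10a and Wnt11). Over all tested genes, these separations held for 24.6% and 34%. On TMM-scaled values 10 and 11 members were separated, beside 30.6% and 28.1% of all tested genes. Wnt11 and Fzd6 were no longer among the lower ones. By library total, Wnt11 in curcumin-treated 1 was only 1.006-fold below the control, and Fzd6 in curcumin-treated 2 was 1.10-fold below. Fzd9 in curcumin-treated 2 had 0.0471 CPM, under the control's limit of 0.111 CPM, so it is not shown to be higher there. The counting interval of Wif1 in that library also reached below this limit. Other counting intervals overlapped the control's too, such as those of Sfrp5 in curcumin-treated 2 and of Wnt9a in both curcumin-treated libraries. By edgeR, 0 members and 0% of genes passed the threshold, 0 members and 112 genes were at an unadjusted p under 0.05, and DESeq2 called 1 member, Wif1, and 71 genes. The median log2 fold change was 0.15 over the members (20 of 33 above 0) and 0.17 over all genes (57.3% above 0). Without curcumin-treated 1 these medians were -0.06 over the members and 0.01 over all genes.

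Wif1 in curcumin-treated 1 was at least 918-fold above the control's limit of 3 counts (adjusted p = 1 by edgeR and 0.0395 by DESeq2 for the comparison). In curcumin-treated 2 it held 8 counts, 1.70-fold above that limit, with a counting interval of 0.0814 to 0.372 CPM. This interval reaches below the limit of 0.111 CPM, so Wif1 is not shown to be higher there. Fzd9 in curcumin-treated 1 was at least 74.5-fold above that limit, and curcumin-treated 2 held 2 counts (adjusted p = 1 by edgeR). Fzd5 had a log2 fold change of -0.64 (SE 0.67, adjusted p = 1 by edgeR). Fzd10 had a log2 fold change of -2.14 (SE 2.40, adjusted p = 1 by edgeR). Curcumin-treated 1 held 0 counts of it, and control 1 was at least 25.04-fold above the limit of 3 counts in that library. Each library group enters a pair of these comparisons, so that the 3 sets of differences are not independent.

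The rest of the pathway was followed through 68 other genes in 5 groups: secretion and extracellular modulators, co-receptors and R-spondin receptors, the cytoplasmic core, nuclear effectors and target genes. Of the 67 tested, 0 passed in either direction in any of the 3 comparisons by edgeR or limma-voom. DESeq2 called Sost in the first comparison, Rspo2 in the second and both in curcumin-treated against control. At an unadjusted p under 0.05 the edgeR counts were 3, 1 and 0 of the 67, in the order of the comparisons above. Beside them stood 696, 440 and 112 of all 29855 genes tested. Their median log2 fold changes were 0.25, -0.13 and 0.14, beside 0.05, 0.07 and 0.17 over all genes. In curcumin-treated against diabetes 12 were separated in the higher and 3 in the lower direction, beside 17.9% and 9.72% of all tested genes. In diabetes against control these counts were 11 and 34, beside 17.3% and 34.5%, and in curcumin-treated against control 9 and 21, beside 24.6% and 34%. On TMM-scaled values the pathway counts were 16 and 3, 13 and 29, and 19 and 19, beside all-gene shares of 18.1% and 9.96%, 20.2% and 30.9%, and 30.6% and 28.1%.

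The secretion gene and the co-receptors were found in every library. Wls, the carrier that brings Wnt proteins to the cell surface, had 81.7 CPM in control 1, 116 and 107 in diabetes 1 and 2, and 120 and 68.1 in curcumin-treated 1 and 2. The co-receptor Lrp5 had 96.2, 87.5, 49.2, 81.7 and 42.2 CPM, and Lrp6 had 65.6, 85.9, 142, 87.4 and 45.6 CPM. The highest library was 1.76-fold above the lowest for Wls, 2.28-fold for Lrp5 and 3.11-fold for Lrp6. Porcn, the enzyme that adds the lipid to Wnt proteins, had 12.9, 4.87, 12.1, 27.2 and 10.2 CPM, a span of 5.59-fold.

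Target genes and transcription factors of the branch did not share a single layout over the libraries. Axin2, a negative feedback gene and a common readout of beta-catenin, had 57.8 CPM in control 1, 54.0 and 12.1 in diabetes 1 and 2, and 8.41 and 32.5 in curcumin-treated 1 and 2. Sp5, another direct target, had 4.55, 3.54, 0, 0.396 and 4.69 CPM. Both were low in diabetes 2 and curcumin-treated 1, the libraries where Sfrp5 and the inhibitor sum were high and where epididymal markers were scarce. These features fell on the same libraries and cannot be told apart, and the part of either was not tested. The factor Tcf7 had 169, 223, 2.56, 6.26 and 114 CPM and Lef1 had 65.0, 55.2, 0.394, 4.93 and 77.1 CPM, with the same split. Nkd1, a feedback inhibitor acting on Dishevelled, did not share it, with 75.2, 64.7, 46.7, 116 and 70.8 CPM. Lgr5, an R-spondin receptor and target gene, stayed at or below 2.91 CPM. Other genes of these groups had other layouts. The factor Tcf7l2 was highest in curcumin-treated 1 and lowest in diabetes 1, with 17.1, 7.11, 22.5, 43.0 and 16.9 CPM. Its relative Tcf7l1 had 35.7, 27.9, 14.2, 33.5 and 16.9 CPM. The target genes Ccnd1, a cell cycle gene, and Myc, a growth regulator, were both highest in curcumin-treated 1, with 150 and 19.3 CPM there. The genes Tcf7, Lef1, Tcf7l1, Tcf7l2, Ccnd1, Myc, Rnf43, Tnfrsf19, Porcn, Ctnnb1, Rspo3 and Sost are given or drawn here after their values were seen.

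**Figure D5:**
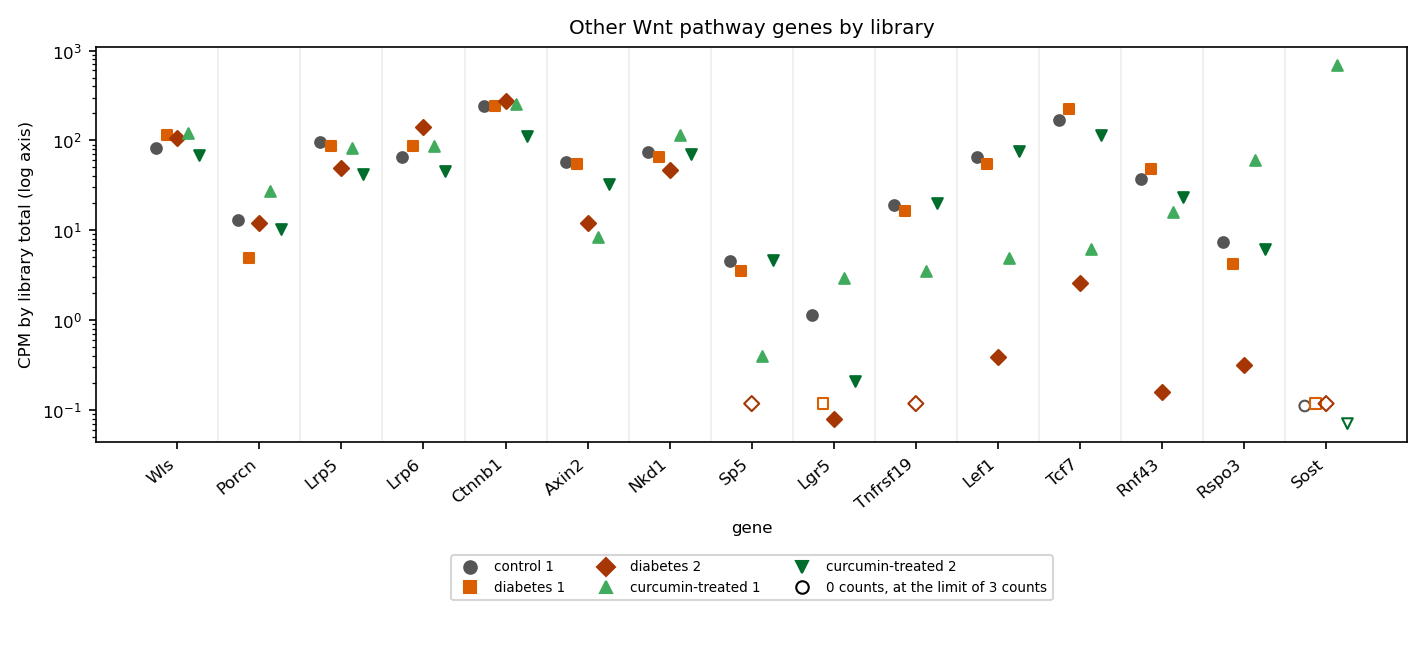
CPM by library total (vertical log axis) of 15 other genes of the pathway (horizontal axis), with a symbol per library and open symbols for 0 counts drawn at the limit of 3 counts. Wls, Lrp5, Lrp6 and Ctnnb1 on the left lie close together, whereas Sp5, Tnfrsf19, Lef1, Tcf7 and Rnf43 are lowest in diabetes 2 and Sost has counts in curcumin-treated 1 alone.

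Some secreted modulators outside the member families were highest in curcumin-treated 1, and Sost, Rspo2 and Sostdc1 were found there almost alone. Sost, which encodes the co-receptor antagonist sclerostin, had 692 CPM there and 0 counts in the other 4 libraries, and so lay at least 6232-fold above the control's limit of 3 counts (adjusted p = 1 by edgeR). Rspo2, an R-spondin that strengthens Wnt signals, had 15.3 CPM there, 10 counts in diabetes 1 and 0 in the others, and lay at least 138-fold above that limit. Rspo3 had 60.2 CPM there, and 7.33, 4.17, 0.315 and 6.25 CPM in control 1, diabetes 1, diabetes 2 and curcumin-treated 2. Sostdc1, a relative of Sost, had 161 counts there against at most 8 elsewhere. Wif1, Fzd2, Fzd7 and Fzd9 were also higher in curcumin-treated 1 than in curcumin-treated 2, and the smooth muscle and pericyte markers stood at 5.10% and 0.237% in that pair. Their part in these differences was not tested.

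Of the other pathway genes with the smallest p, Prickle1, a polarity protein, had 22.6 CPM in control 1, 13.2 and 8.16 in diabetes 1 and 2, and 47.7 and 22.8 in curcumin-treated 1 and 2, with a log2 fold change of 1.70 against diabetes (SE 0.56, adjusted p = 0.852 by edgeR). Lgr4, an R-spondin receptor, had 37.4, 55.2, 78.8, 32.2 and 18.2 CPM, with a log2 fold change of -1.46 against diabetes (SE 0.52, adjusted p = 0.852 by edgeR). With each replicated library left out these values ran between 1.21 and 2.05 for Prickle1 and between -1.80 and -1.07 for Lgr4. For both genes the curcumin-treated and diabetic libraries did not overlap, so the sign was bound to stay and adds no support. The target gene Ccn5 had 90.0 CPM in diabetes 2 and at most 5.18 elsewhere. Its log2 fold change was -3.88 with curcumin (SE 2.15, adjusted p = 0.852 by edgeR), which turned to 3.30 without diabetes 2, and 8.46 in diabetes against control (SE 3.75, adjusted p = 1 by edgeR), which was 1.27 without it. Cd44, another target, had 153 CPM in diabetes 2 and at most 32.8 elsewhere, and its log2 fold change against control was 3.87 (SE 2.09, adjusted p = 1 by edgeR) and -0.040 without diabetes 2. Kremen2, a Dkk receptor, had 55 counts in control 1, 0 and 1 in the diabetic libraries and 11 and 27 in the curcumin-treated ones, with adjusted p = 1 by edgeR against control in both groups. Lgr5 had 31 counts in control 1 and 0 and 2 in the diabetic libraries, also with adjusted p = 1 by edgeR. The log2 fold change of Axin2 with curcumin against control was -1.30 (SE 1.14, adjusted p = 1 by edgeR), and ran from -2.77 without curcumin-treated 2 to -0.59 without curcumin-treated 1.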

How the data were processed

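For the 5 libraries, prepared from poly-A RNA with a kit that marks the strand per the labels' protocols, the authors deposited raw whole-number counts for each gene. FastQC, featureCounts and the build GRCm39 are named in the submitters' processing notes. The aligner, the annotation and the strand setting of the counting were not given in the sources used here, so reads of overlapping antisense genes cannot be told apart. A symbol was found by gene ID for 51486 of 78334 genes (65.7%), with 95.3% to 98.5% of the counts of a library.

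Members and lists were chosen with earlier results of these data known. Values are CPM by library total. Exon-union lengths, found for all 38 members, came from a GRCm38 annotation. Exact Poisson intervals (values), Wilson intervals (marker shares), both at 95%, and the limit of 3 counts cover counting error only, since the reads carry no molecular identifiers.

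The 29855 genes kept by edgeR's filterByExpr were scaled by TMM. Version 4.0.16 of edgeR, run in R 4.3.3, fitted 1 model to the 5 libraries by quasi-likelihood (robust, with its newer dispersion estimate). Tests were two-sided, p-values were adjusted by Benjamini-Hochberg over all tested genes, and the threshold was 0.05. There were 2 residual degrees of freedom, the spread of the lone control was taken from the replicated groups, and the biological coefficient of variation was 1.07. The prior count behind fitted fold changes was 0.125. The code of the test was checked on simulated counts. These had a shared profile and a much smaller spread than the 5 libraries. The check therefore does not tell how the test behaves on these data.

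Members with at least 10 CPM in a library were named with all values. In each comparison, up to 2 members and 2 other pathway genes per direction with the smallest p were given the test, and Axin2, Nkd1, Lgr5, Sp5, Wls, Lrp5 and Lrp6 were added. Where the control had 0 counts, a bound from the limit of 3 counts replaced the fitted value. Such bounds leave out the counting error of the library set against the control. Alternatives were other scalings and filters, DESeq2 1.42.0, limma-voom (limma 3.58.1), no robust moderation, removal of 27 markers of other tissues, a replicate block and leaving out each replicated library. The older quasi-likelihood method and a crossed pairing were chosen after seeing the data.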

Additional observations from a re-analysis of the deposited data

How the results depend on the processing

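The count of members past the threshold stayed at 0 in all 3 comparisons under each alternative run except DESeq2, which called 1, Wif1, in curcumin-treated against control. DESeq2 also called 93 genes in curcumin-treated against diabetes (90 higher), 55 in diabetes against control (48 higher) and 71 in curcumin-treated against control (all 71 higher), where edgeR called 0. The cause was not tested. With the replicate number as a block, 0 genes and 0 members were called in each comparison. Same-numbered libraries deviated in opposite directions (correlation -0.41 over 29855 genes), so the numbers were not taken as pairs, and a crossed pairing also called 0 genes and 0 members.

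Leaving out a replicated library in turn left every count of genes and members at 0, with the lone library of an arm assumed to vary like the others. The log2 fold change of Dkk1 with curcumin against diabetes ran from -7.61 to 6.72 (a value that depends on the prior count, since diabetes 2 held 0 counts), that of Ccn5 from -4.87 to 3.30, and that of Cd44 in diabetes against control from -0.040 to 4.81. Of the fold changes of single genes, 342 kept their direction and side of the threshold, 3 changed sign and 3 passed only under DESeq2 (Wif1, Rspo2 and Sost, each with 0 counts in the control). Under limma-voom in diabetes against control the median went from 0.26 to -0.56 over the members and from 0.07 to -0.11 over all genes. Scaled to the library total, curcumin-treated against control went from 0.15 to -0.03 over the members and from 0.17 to 0.03 over all genes. On TMM-scaled values, 7 and 1 members were separated in curcumin-treated against diabetes, beside 18.1% and 9.96% of all tested genes. Without a low-count filter the median of all genes was 0.82 in curcumin-treated against diabetes and 0.99 in curcumin-treated against control, beside 0.39 and 0.40 over the members.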
